A study of Mus musculus with 21 samples.

Results

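The IGF1 axis genes are 9 genes that were found in the count files by mapping their Ensembl identifiers to the symbols Igf1, Igf1r, Insr, Irs1, Irs2, Igfbp2, Igfbp3, Igfbp4 and Igfbp5. All 9 were present, among 55487 gene identifiers, and all 9 passed the filter on low counts in both sets of libraries. They were chosen by pathway name with results of these libraries already known, and which measured values they were selected on is not recorded, so the p-values given for them describe these libraries and are not independent evidence. RNA came from mouse embryonic stem cells grown into embryoid bodies, whose cells were sorted at day 4 by FLK1 and PDGFRalpha, the products of Kdr and Pdgfra. SP cells carried FLK1 without PDGFRalpha, and DP cells carried both receptors. The reporter line (TGET) carries T-GFP and Etv2-tdTomato, T being a gene of early mesoderm and Etv2 an ETS factor that endothelium and blood need. Its groups were SP Etv2-positive, SP Etv2-negative, DP Etv2-positive and DP Etv2-negative cells, split by tdTomato. How T-GFP was gated is not given in the sources used here. A second set held SP cells of the iEtv2 line, which turns on Etv2 under doxycycline (2 µg per ml from day 2.5), followed by SP and DP cells of A2lox.Cre, the wildtype line (WT). The 7 groups held 3 libraries apiece, which makes 21. No iEtv2 group without doxycycline and no WT group with it is among the labels used here, so the line, doxycycline and Etv2 cannot be told apart in that comparison. Nothing in the labels states that replicates were separate cultures, so p-values measure the spread between these samples, which may be technical.

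IGF1 is a secreted growth factor that signals through the receptor tyrosine kinase IGF1R, and insulin acts through the related receptor INSR. Both receptors pass the signal to the docking proteins IRS1 and IRS2, which recruit PI3K and AKT, and AKT keeps FOXO transcription factors out of the nucleus. IGF-binding proteins hold IGF1 and IGF2 outside the cell and can limit or prolong their action, and proteases such as PAPP-A release the growth factors again. In the embryo IGF2 is the main growth-promoting ligand, and the pathway is known to support mesoderm, endothelium and blood progenitors.

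Libraries held 22406153 to 32777143 counts on genes. A count of 0 allows up to 3 counts, which is 0.0915 to 0.134 CPM (counts scaled by library size), and covers counting error only. Pseudogenes took 12.2 to 14.4% of counts in libraries of the reporter line but 0.549 to 0.636% in those of the second set, so levels are compared within a set. Ribosomal RNA reached 1.40% of counts at most in the reporter line, where SP Etv2-negative replicate 2 and SP Etv2-positive replicate 3 stood apart from the other 10 libraries. Etv2 itself was higher in the Etv2-positive cells of SP (89 against 26.6 CPM) and of DP (58.4 against 20.2 CPM), and in iEtv2 SP against WT SP (239 against 93.6 CPM). Pdgfra was lower in SP than in DP of the reporter line and of WT, with 37.5 against 150 CPM in Etv2-positive cells. Kdr was above 437 CPM in every group mean. In sorted bulk RNA, fewer cells of a type and less RNA per cell cannot be told apart.

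The plot of levels by library shows every value. In the reporter line 5 members were higher and 3 lower in DP Etv2-positive than in DP Etv2-negative cells, and 30.7% of the 17690 genes tested were called there (16% higher, 14.7% lower). The groups of 6 members did not overlap, against 42% of all genes. In SP 4 members were higher and 1 was lower in Etv2-positive than in Etv2-negative cells, against 25.5% of all genes (13.1% higher, 12.4% lower). Of the 4, Igf1 passed the filter only through SP Etv2-positive cells and so had to be higher there, which leaves 3. Again 6 members did not overlap, Igf1 among them, against 44.8% of all genes. In iEtv2 SP against WT SP 3 members were higher and 3 lower, against 50.8% of 16288 genes (26.4% higher, 24.4% lower). There 5 members did not overlap, against 60.4% of all genes. Calls and every adjusted p are from edgeR quasi-likelihood fits, with the Benjamini-Hochberg method over all genes tested and a threshold of 0.05. Values after ± are SE for log2 fold changes and SD for levels, with n = 3 libraries per group. Of all genes called in SP, 2314 were higher and 2190 lower in Etv2-positive cells, and 1800 were higher and 2653 lower with upper-quartile scaling.

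Markers of paraxial mesoderm, 8 in all and none at 0 in any group, fell along with the reporter. Their sum ran from 17.4 to 31.9 CPM in DP Etv2-positive against 148.5 to 216 in DP Etv2-negative cells, and from 11.4 to 14.5 in SP Etv2-positive against 32.6 to 58 in SP Etv2-negative cells. Of the 7 tested, 6 were lower in DP and 5 in SP, and Meox1 was higher in both. Their part in the reporter effects on the members was not tested.

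**Figure D1:**
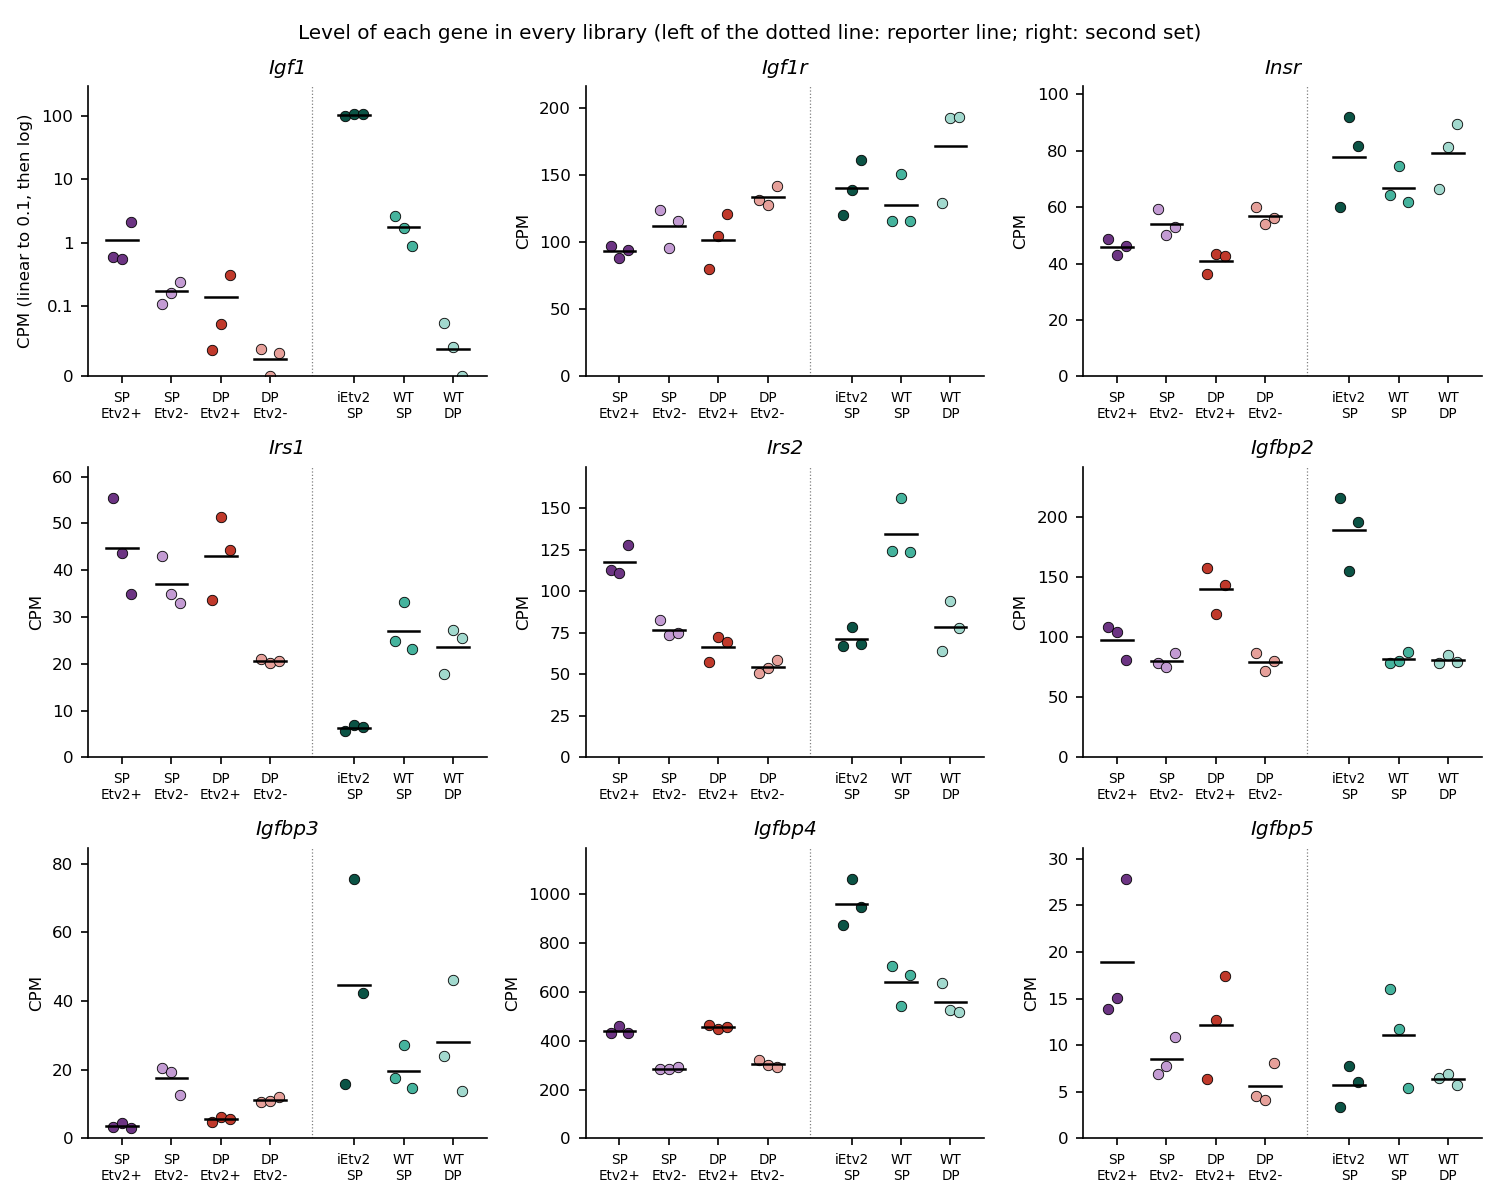
Level in CPM of the 9 genes in each of the 21 libraries, with the group mean as a bar, the reporter line left and the second set right of the dotted line, levels being comparable only within a side; the y axis of Igf1 is linear up to 0.1 CPM and logarithmic above. Igf1 stands near 100 CPM in the 3 iEtv2 SP libraries and at 2.67 CPM or less in the 3 WT SP libraries.

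Irs1 and Igfbp3 gave, with Igf1, the 3 largest differences between the induced-Etv2 and the reporter effect in SP, and both hold the letters CCGGAA, the extended core that many ETS factors can bind, in the 250 bases before their start. These windows, from RefSeq (build GRCm38.p6), are chr1:82291440-82291689 on the minus strand for Irs1 and chr11:7213924-7214173 on the minus strand for Igfbp3. They are written 5′ to 3′ in lower case, and capitals mark CCGGAA or its reverse complement TTCCGG.
Irs1: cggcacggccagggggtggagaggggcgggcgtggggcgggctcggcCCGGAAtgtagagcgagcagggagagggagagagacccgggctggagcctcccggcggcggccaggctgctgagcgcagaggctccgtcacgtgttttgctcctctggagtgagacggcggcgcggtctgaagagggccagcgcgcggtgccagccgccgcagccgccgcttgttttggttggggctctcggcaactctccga
Igfbp3: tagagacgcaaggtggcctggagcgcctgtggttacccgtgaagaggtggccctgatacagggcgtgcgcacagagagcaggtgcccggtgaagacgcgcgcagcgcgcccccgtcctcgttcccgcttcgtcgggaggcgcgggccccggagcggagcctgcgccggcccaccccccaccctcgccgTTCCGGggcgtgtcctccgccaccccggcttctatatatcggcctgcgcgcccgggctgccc
The table held windows for 8 of the 9 members, with 2 for Igfbp2. The other members' windows, searched on both strands, did not hold these letters, and 12% of the 32851 windows of the same length in the table did. The shorter core GGAA, which lies inside CCGGAA, was present on either strand in every member window searched, and in 93.4% of all windows. It occurred 6 times before Igf1 and 1 time before Irs1, against a median of 3. The window for Igf1 starts from a site 2846 bases downstream of the 5′ end of the gene in GENCODE M21 and lies inside annotated exons of other transcripts, so it is not printed. A match describes the letters and is not a measured binding site. The differences of Irs1 and Igfbp3 had opposite signs (-2.31 and 3.52), and a link to these letters was not tested.

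Igf1, the ligand (ENSMUSG00000020053, mm10 chromosome 10, 87858265 to 87937042, plus strand), was close to absent in most groups and abundant in 1 group. In iEtv2 SP it had 99.3, 108 and 107.7 CPM, against 2.67, 1.71 and 0.891 CPM in WT SP. The 2 groups did not overlap. The log2 fold change was 5.89 ± 0.24, or 59.1-fold (adjusted p = 5.3e-08), on 8607 counts in iEtv2 SP against 134 in WT SP. Leaving out any library kept it between 5.60 and 6.32. Per kb of exon, Igf1 stood at 10.6 ± 0.5 CPM in iEtv2 SP and Igf2, the other IGF, at 22.5 ± 2.55 CPM. The ratio of Igf1 to Igf2 per kb was 0.415, 0.46 and 0.557 in iEtv2 SP, against 0.0112, 0.00782 and 0.00556 in WT SP.

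Within WT, Igf1 followed the gate. There were 68, 45 and 21 counts in SP and 2, 1 and 0 in DP. The pooled ratio was 42.5, with a counting interval of 14.2 to 209 (95%, exact), and the adjusted p was 0.000379. Such intervals, here and below, pool the libraries of a group and leave out the spread between them. The 3 WT DP libraries were all under the limit of 3 counts.

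In the reporter line Igf1 was detected mainly in SP Etv2-positive cells, the group through which it passed the filter. Counts were 16, 15 and 62 in SP Etv2-positive cells, against 3, 5 and 7 in SP Etv2-negative cells. The groups did not overlap, and replicate 3 of the Etv2-positive cells held more Igf1 than the other 2 together. The log2 fold change was 2.66 ± 0.65, and the pooled ratio was 6.31 with a counting interval of 3.63 to 11.7. These values are a description, since the filter kept Igf1 only because of this group. Without that replicate the log2 fold change was 1.73, and without both libraries of high ribosomal RNA share, of which it is 1, the log2 fold change was 1.69, and neither was called. DP Etv2-positive cells had 1, 2 and 10 counts, against 1, 0 and 1 in DP Etv2-negative cells. That difference was not called (pooled ratio 6.53, counting interval 1.48 to 59.6, adjusted p = 0.19). With the replicate number as a block it was called (adjusted p = 0.0305).

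Between gates, SP Etv2-positive cells had 93 counts of Igf1 and DP Etv2-positive cells 13, a pooled ratio of 7.25 with a counting interval of 4.04 to 14.1, again as a description only. SP Etv2-negative cells had 15 counts and DP Etv2-negative cells 2, which was not called (adjusted p = 0.228). The order of group means was SP Etv2-positive, SP Etv2-negative, DP Etv2-positive, DP Etv2-negative, and the last 3 did not differ from their neighbour beyond their spread.

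Igf1 moved with the sums of endothelial and of blood markers. The sum of 10 markers (Pecam1, Cdh5, Tek, Tie1, Emcn, Esam, Egfl7, Sox7, Sox18 and Erg) ran from 1649 to 2049 CPM in iEtv2 SP, from 137 to 199 in WT SP and from 16.2 to 25.7 in WT DP. It ran from 122 to 234 CPM in SP Etv2-positive cells, from 30.9 to 54 in SP Etv2-negative cells, from 42.2 to 65.3 in DP Etv2-positive cells and from 20.2 to 28.5 in DP Etv2-negative cells. None of the 10 was at 0 in any group except Emcn in DP Etv2-negative cells. SP Etv2-positive replicate 3 held most Igf1 in the reporter line. It also had the highest endothelial sum there, 234 CPM, and the highest sum of 10 blood markers, 306 CPM. The blood sum ran from 373 to 385 CPM in iEtv2 SP, 203.5 to 259 in WT SP and 31.1 to 39.4 in WT DP. It ran from 179 to 306 CPM in SP Etv2-positive and 48.8 to 57 in SP Etv2-negative cells. DP Etv2-positive cells had 44.9 to 52 CPM and DP Etv2-negative cells 16 to 20.6 CPM. Of 7 blood markers tested, 4 were higher and 3 lower in iEtv2 SP than in WT SP. Ptprc, Hba-x and Hbb-bh1 were at 0 in some groups. The part of these cells in the Igf1 values was not tested.

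**Figure D2:**
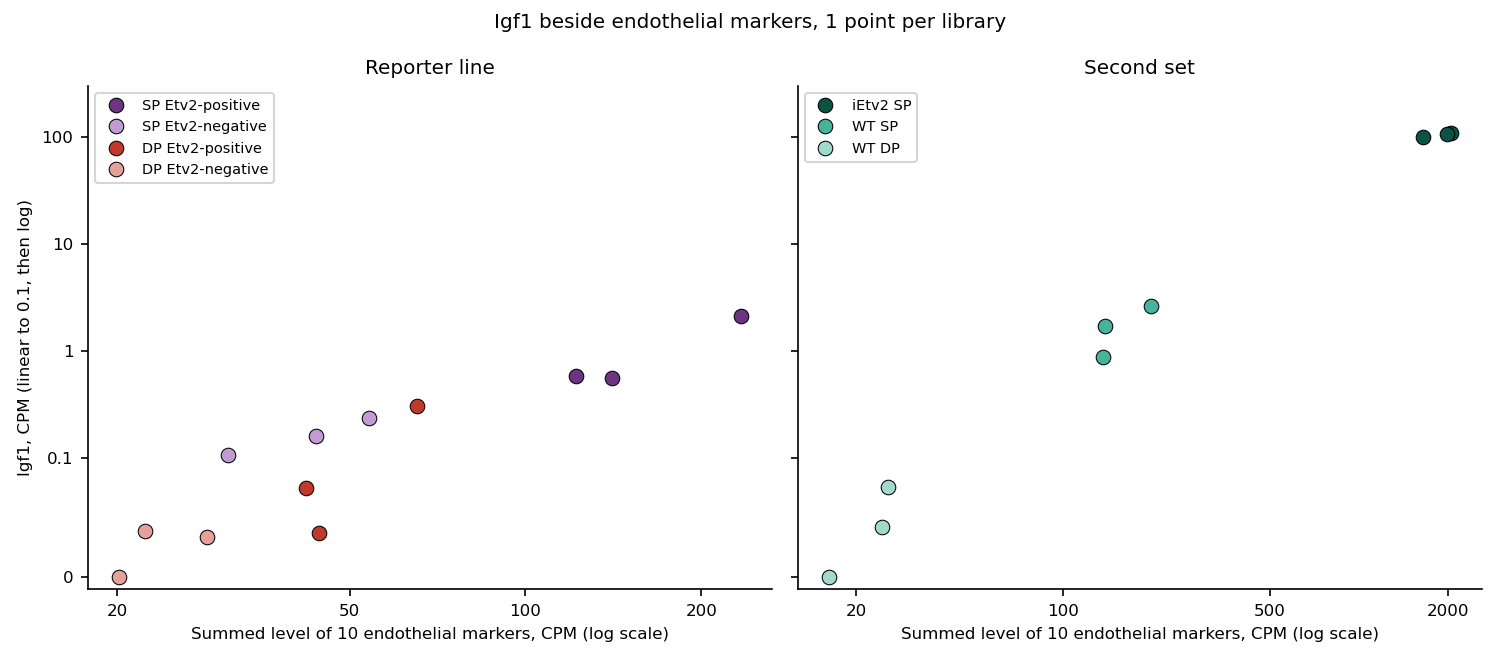
Igf1 in CPM (y axis, linear to 0.1 and then logarithmic) against the summed CPM of 10 endothelial markers (x axis, logarithmic) in each library, for the reporter line and the second set. The 3 iEtv2 SP libraries lie at 1649 to 2049 CPM of markers and 99.3 to 108 CPM of Igf1, apart from all others.

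The genes most like Igf1 over the 7 groups, by the root mean square difference of group-mean log2 CPM centred within each set, were Myzap (0.67), Dysf (0.76) and Fli1 (0.77), among 9678 genes of at least 5 CPM. Fli1, an ETS factor of endothelium and blood, averaged 266 CPM in iEtv2 SP, 33.6 in WT SP and 3.84 in WT DP, and 23.3 in SP Etv2-positive, 5.86 in SP Etv2-negative, 5.76 in DP Etv2-positive and 3.61 in DP Etv2-negative cells. Dysf, which encodes the membrane repair protein dysferlin, averaged 175 CPM in iEtv2 SP, 13.1 in WT SP and 4.14 in WT DP. In the reporter line it averaged 11.6 CPM in SP Etv2-positive, 4.93 in SP Etv2-negative, 2.89 in DP Etv2-positive and 6.42 in DP Etv2-negative cells, an order that differs from that of Igf1. The antisense gene Igf1os overlaps Igf1 without sharing exon bases and held 12 counts, all in iEtv2 SP (4, 1 and 7), and 0 in the other 18 libraries.

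The receptors gave small log2 fold changes, between -0.48 and 0.22 in the reporter and iEtv2 comparisons. Igf1r (ENSMUSG00000005533, chromosome 7, 67952827 to 68233668, plus strand) had 80.4, 104 and 121 CPM in DP Etv2-positive cells, against 132, 128 and 142 CPM in DP Etv2-negative cells. The groups did not overlap, and the log2 fold change was -0.39 ± 0.12 (adjusted p = 0.0289). This call was lost without any 1 of the 3 DP Etv2-negative libraries or without DP Etv2-positive replicate 1 or 2 (adjusted p 0.0535 to 0.0935), and without DP Etv2-positive replicate 1 the log2 fold change was -0.24. With only those 2 groups in the fit the adjusted p was 0.0625. In SP the group means were 93.3 CPM in Etv2-positive and 112 CPM in Etv2-negative cells, which was not called (adjusted p = 0.143). In the second set Igf1r averaged 140 ± 20.7 CPM in iEtv2 SP, 127.5 ± 20.3 in WT SP and 172 ± 36.7 in WT DP, and the 3 groups overlapped (iEtv2 SP over WT SP, adjusted p = 0.524).

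Insr (ENSMUSG00000005534, chromosome 8, 3122061 to 3279617, minus strand) was lower with the reporter in DP. It had 36.2, 43.4 and 42.7 CPM in DP Etv2-positive cells, against 60.2, 54.1 and 56.2 CPM in DP Etv2-negative cells, with no overlap. The log2 fold change was -0.48 ± 0.08 (adjusted p = 0.000971). In SP it averaged 45.95 ± 3.001 CPM in Etv2-positive and 54.1 ± 4.64 CPM in Etv2-negative cells, a log2 fold change of -0.24 ± 0.08 that missed the threshold (adjusted p = 0.0564). With the replicate block it passed (adjusted p = 0.0479), as it did with upper-quartile scaling (adjusted p = 0.029), when the fit held only the compared groups (adjusted p = 0.0391) and without SP Etv2-negative replicate 2 (adjusted p = 0.0489). In the second set Insr averaged 77.8 ± 16.4 CPM in iEtv2 SP, 66.9 ± 6.68 in WT SP and 79.1 ± 11.6 in WT DP, all overlapping, and neither comparison was called (adjusted p = 0.262 and 0.349). Without iEtv2 SP replicate 1, the lowest library of its group, Insr was called higher in iEtv2 SP (log2 fold change 0.39, adjusted p = 0.0317). Per kb of exon Igf1r exceeded Insr in every library, with group means of the ratio from 1.5 ± 0.23 in iEtv2 SP to 2.04 ± 0.26 in DP Etv2-positive cells.

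Both docking proteins were lower in iEtv2 SP than in WT SP, and each was higher with the reporter in at least 1 gate. Irs1 (ENSMUSG00000055980, chromosome 1, 82233101 to 82291416, minus strand) had 5.68, 6.86 and 6.56 CPM in iEtv2 SP, against 24.9, 33.2 and 23.1 CPM in WT SP. The groups did not overlap, and the log2 fold change was -2.09 ± 0.19, or 4.25-fold lower in iEtv2 SP (adjusted p = 6.68e-06). In DP Etv2-positive cells Irs1 had 33.7, 51.3 and 44.2 CPM, against 21, 20.1 and 20.6 CPM in DP Etv2-negative cells. That was a log2 fold change of 1.07 ± 0.17 without overlap (adjusted p = 0.000491). In SP the means were 44.7 ± 10.3 CPM in Etv2-positive and 37 ± 5.31 CPM in Etv2-negative cells, which was not called (log2 fold change 0.27 ± 0.17, adjusted p = 0.254). The reporter effect in SP minus that in DP was -0.79 ± 0.24 and was not called (adjusted p = 0.0806). It was called with the replicate block (adjusted p = 0.0447), with DESeq2 (adjusted p = 0.0174), and without DP Etv2-positive replicate 1 (adjusted p = 0.039) or SP Etv2-positive replicate 1 (adjusted p = 0.0401). Among Etv2-negative cells Irs1 was higher in SP than in DP (log2 fold change 0.85 ± 0.17, adjusted p = 0.00778), so DP Etv2-negative cells stood lowest of the 4 reporter groups and the other 3 overlapped.

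The opposite-strand gene Gm9747 covers 2822 of the 9144 exon bases of Irs1, and whether the counting used strand is not stated. Gm9747 held 0 counts in all 21 libraries, and what the overlap does to the level of Irs1 was not tested.

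Irs2 (ENSMUSG00000038894, chromosome 8, 10984681 to 11008458, minus strand) was higher in SP than in DP of the reporter line and of WT. It had 113, 111 and 128 CPM in SP Etv2-positive cells, 82.5, 73.6 and 74.7 CPM in SP Etv2-negative cells, 57.4, 72.5 and 69.2 CPM in DP Etv2-positive cells, and 51, 54 and 58.7 CPM in DP Etv2-negative cells. SP Etv2-positive cells stood above every other library of the line. SP over DP gave log2 fold changes of 0.82 ± 0.09 in Etv2-positive cells (adjusted p = 0.00027), 0.49 ± 0.09 in Etv2-negative cells (adjusted p = 0.00467) and 0.77 ± 0.14 in WT (adjusted p = 0.00393). With the reporter the log2 fold change was 0.61 ± 0.09 in SP (adjusted p = 0.000515) and 0.28 ± 0.09 in DP (adjusted p = 0.0319). The DP call was lost without DP Etv2-negative replicate 1 or 2 or DP Etv2-positive replicate 2 or 3 (adjusted p 0.0941 to 0.142), and with only those groups in the fit (adjusted p = 0.0758).

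In iEtv2 SP, set against WT SP cells that were not split by Etv2, Irs2 ran the other way. It had 66.8, 78.8 and 68.1 CPM in iEtv2 SP, against 124, 156 and 124 CPM in WT SP. The groups did not overlap, and the log2 fold change was -0.92 ± 0.14 (adjusted p = 0.000278). The iEtv2 SP level overlapped that of WT DP, at 78.8 ± 15.3 CPM. Irs1 and Irs2 together came to 12 ± 1.1 CPM per kb in iEtv2 SP against 24.3 ± 3.52 in WT SP, and to 23.4 ± 0.98 in SP Etv2-positive against 16.2 ± 1.33 in SP Etv2-negative cells. The ratio of Irs1 to Irs2 per kb was 0.0619 ± 0.0043 in iEtv2 SP and 0.138 ± 0.009 in WT SP.

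Genes of like pattern were Gfpt2 (0.12), Aebp1 (0.12) and Zc3hav1 (0.14) for Irs1, and Slc39a8 (0.09), Fam210b (0.14) and Adamts1 (0.14) for Irs2, by the same root mean square difference. Beside Irs1, the sum of 10 fibroblast and feeder-cell markers ran from 52.2 to 78.7 CPM in iEtv2 SP against 366 to 450 in WT SP, and from 572.5 to 787 in DP Etv2-positive against 176 to 314 in DP Etv2-negative cells. In SP Etv2-negative cells it ran from 354 to 426 CPM. It ran from 185 to 281 CPM in WT DP and from 375 to 482 in SP Etv2-positive cells. Irs1 was not called between gates in WT or in Etv2-positive cells (adjusted p = 0.498 and 0.868). Members of the list went both ways in iEtv2 SP over WT SP, with Thy1 and Col1a2 called higher and Col1a1, Fbln2, Twist2 and Prrx1 lower of 8 tested. Of these markers Lum and Dcn were at 0 in DP Etv2-negative, SP Etv2-positive and WT DP cells. Lum alone was at 0 in iEtv2 SP, WT SP and SP Etv2-negative cells. Their part in the Irs1 values was not tested.

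**Figure D3:**
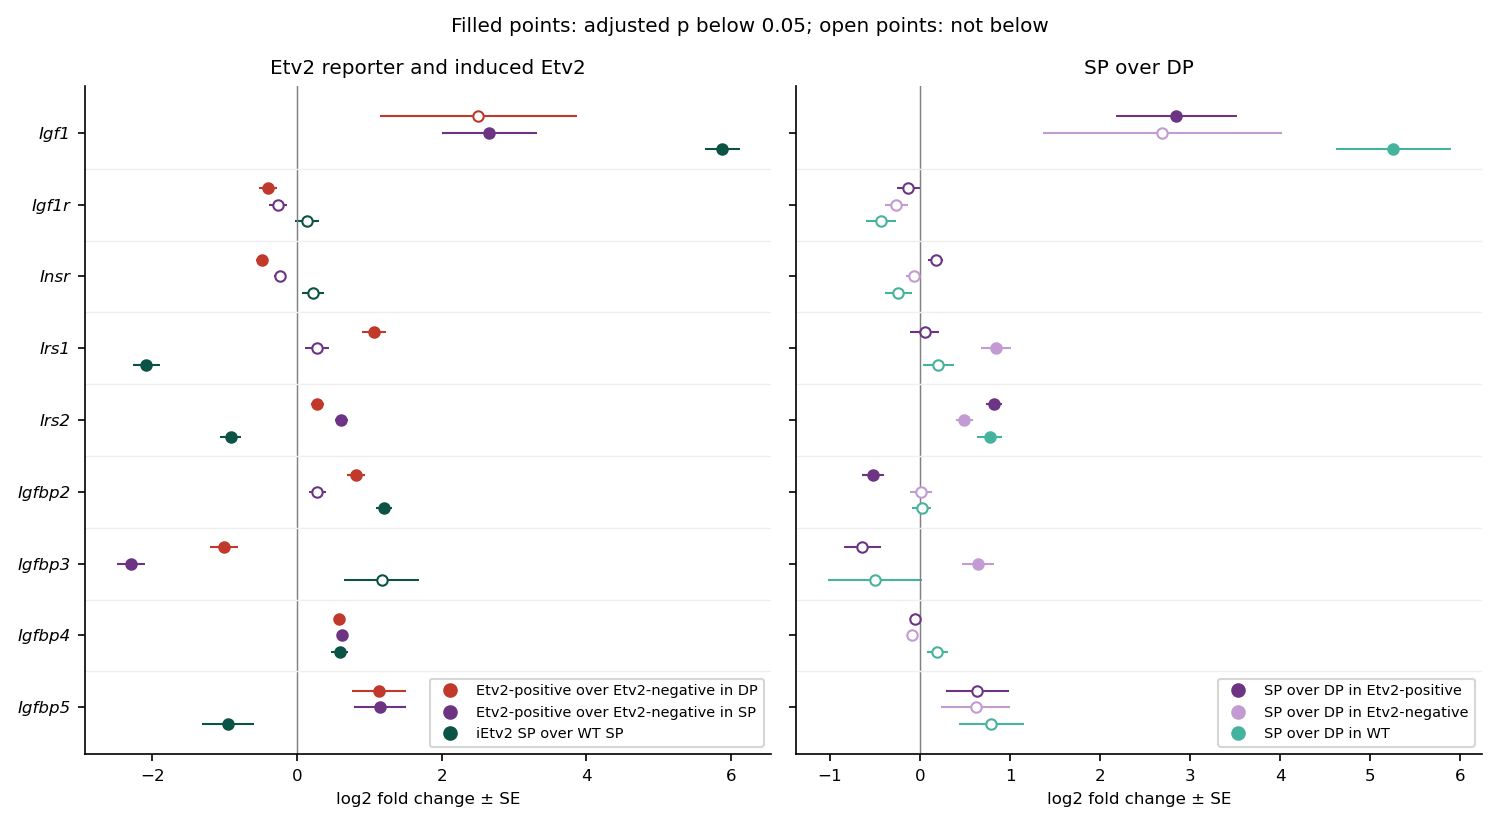
Log2 fold change with its SE for each gene in the reporter and induced-Etv2 comparisons (left) and in SP over DP (right), with filled points for those past an adjusted p of 0.05. Irs1, Irs2 and Igfbp5 lie right of 0 with the reporter and left of 0 in iEtv2 SP over WT SP, and Igfbp4 lies between 0.58 and 0.63 in all 3.

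The binding proteins split into 2 abundant and 2 scarce genes. Igfbp4 (ENSMUSG00000017493, chromosome 11, 99041244 to 99054392, plus strand), whose product binds IGFs and is a substrate of PAPP-A, was the most abundant member per kb of exon. It had 432, 461 and 432 CPM in SP Etv2-positive cells against 283, 283 and 291 CPM in SP Etv2-negative cells. In DP it had 466, 449 and 456.5 CPM in Etv2-positive cells against 322, 299 and 294 CPM in Etv2-negative cells. Every Etv2-positive library stood above every Etv2-negative one. The log2 fold changes were 0.63 ± 0.05 in SP (adjusted p = 1.33e-05) and 0.58 ± 0.05 in DP (adjusted p = 5.96e-06), and the difference between them was 0.04 ± 0.07. In iEtv2 SP it had 872, 1062 and 949 CPM, against 705, 543 and 671 CPM in WT SP, a log2 fold change of 0.59 ± 0.12 (adjusted p = 0.00167). It did not differ by a call between SP and DP in any of the 3 gate comparisons, where log2 fold changes lay between -0.09 and 0.19.

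Igfbp2 (ENSMUSG00000039323, chromosome 1, 72824503 to 72852474, plus strand) encodes another secreted binder of IGF1 and IGF2. It had 216, 155 and 196 CPM in iEtv2 SP, against 78.8, 80.4 and 87.4 CPM in WT SP. These did not overlap, and the log2 fold change was 1.201 ± 0.108 (adjusted p = 6.76e-06). DP Etv2-positive cells had 158, 120 and 143.5 CPM and DP Etv2-negative cells 87.2, 71.6 and 80.3 CPM, a log2 fold change of 0.82 ± 0.12 (adjusted p = 0.000263). In SP it had 108, 104 and 81.1 CPM in Etv2-positive cells against 78.8, 75.3 and 86.8 CPM in Etv2-negative cells. Those groups overlapped and were not called (log2 fold change 0.28 ± 0.12, adjusted p = 0.0991), and without SP Etv2-positive replicate 3 they were (log2 fold change 0.40, adjusted p = 0.0259). SP Etv2-positive cells were below DP Etv2-positive cells (log2 fold change -0.52 ± 0.12, adjusted p = 0.0127), a call lost without both libraries of high ribosomal RNA share (adjusted p = 0.057). The reporter effect in SP minus that in DP was -0.53 ± 0.17 and was not called (adjusted p = 0.0946). It was called with the replicate block (adjusted p = 0.0407), with DESeq2 (adjusted p = 0.038) and without DP Etv2-positive replicate 2 (adjusted p = 0.0492). Dab2 (0.08), Eva1b (0.09) and Pltp (0.14) had the most like pattern.

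Igfbp3 (ENSMUSG00000020427, chromosome 11, 7206086 to 7213923, minus strand) encodes the main IGF carrier of serum. It fell with the reporter in both gates. It had 3.28, 4.52 and 2.88 CPM in SP Etv2-positive cells, against 20.4, 19.3 and 12.7 CPM in SP Etv2-negative cells. DP Etv2-positive cells had 4.82, 6.29 and 5.52 CPM and DP Etv2-negative cells 10.5, 10.8 and 12.2 CPM. In both gates the groups were apart, with log2 fold changes of -2.30 ± 0.20 in SP (adjusted p = 1.66e-05) and -1.01 ± 0.19 in DP (adjusted p = 0.00145). The difference of the 2 effects, SP minus DP, was -1.29 ± 0.27 (adjusted p = 0.0281). As reported here, without a replicate block, Igfbp3 was the only member called in that comparison, where 3.97% of all genes were (1.52% higher, 2.45% lower). Leaving out 7 of the 12 libraries, 1 at a time, raised its adjusted p above the threshold (0.0512 to 0.0814), as did leaving out both libraries of high ribosomal RNA share (adjusted p = 0.0965), with log2 values between -1.29 and -1.08. Those 7 were DP Etv2-negative replicates 1 and 2, DP Etv2-positive replicate 3, SP Etv2-negative replicates 1 and 2, and SP Etv2-positive replicates 1 and 3. With the replicate block, with DESeq2 and without a filter, Irs1 and Igfbp2 were called in that comparison as well as Igfbp3.

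In the second set Igfbp3 varied widely within groups. It had 16, 75.5 and 42.2 CPM in iEtv2 SP, 17.6, 27.2 and 14.5 CPM in WT SP and 24.1, 46.2 and 13.9 CPM in WT DP. All 3 groups overlapped. The log2 fold change of iEtv2 SP over WT SP was 1.17 ± 0.52 (adjusted p = 0.0825), and without iEtv2 SP replicate 1 it was 1.58 (adjusted p = 0.0104). Among Etv2-negative cells Igfbp3 was higher in SP than in DP (log2 fold change 0.65 ± 0.18, adjusted p = 0.0338). That call was lost without SP Etv2-negative replicate 1 or 2 or DP Etv2-negative replicate 1 or 2 (adjusted p 0.11 to 0.143), and without the libraries of high ribosomal RNA share (adjusted p = 0.0898). Its most like genes were Ndrg2 (0.13), Ndufa4l2 (0.19) and Ndrg1 (0.19), of which Ndufa4l2 and Ndrg1 are known to be induced by low oxygen. The part of oxygen in the Igfbp3 values was not tested.

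Igfbp5 (ENSMUSG00000026185, chromosome 1, 72857932 to 72874884, minus strand) lies tail to tail with Igfbp2, 5457 bases away. Its product binds IGFs and extracellular matrix. It had 13.9, 15.1 and 27.8 CPM in SP Etv2-positive cells against 6.96, 7.8 and 10.9 CPM in SP Etv2-negative cells, and 6.33, 12.7 and 17.4 CPM in DP Etv2-positive cells against 4.55, 4.1 and 8.08 CPM in DP Etv2-negative cells. In each of the 4 groups replicate 3 was the highest. The log2 fold change was 1.15 ± 0.36 in SP (adjusted p = 0.0327) and 1.13 ± 0.38 in DP (adjusted p = 0.0361). In iEtv2 SP it had 3.34, 7.74 and 6.09 CPM, against 16.1, 11.8 and 5.35 CPM in WT SP, and these overlapped (log2 fold change -0.95 ± 0.36, adjusted p = 0.0476). With the replicate number as a block, all 3 calls were kept. In fits without the block, all 3 calls depended on single libraries. The SP call was lost without SP Etv2-negative replicate 1 or 2 or SP Etv2-positive replicate 3 (adjusted p 0.0954 to 0.152), where the lowest log2 fold change was 0.76. Without both libraries of high ribosomal RNA share it was 0.69 (adjusted p = 0.272). The DP call was lost without DP Etv2-negative replicate 1 or 2 or DP Etv2-positive replicate 2 or 3 (adjusted p 0.0782 to 0.168), where the lowest was 0.77. The iEtv2 call was lost without WT SP replicate 1 or 2 or iEtv2 SP replicate 1 or 3 (adjusted p 0.0948 to 0.221), where the smallest fall was -0.57. When the fit held only the compared groups, the DP call (adjusted p = 0.052) and the iEtv2 call (adjusted p = 0.0659) were lost, and a filter of 1 CPM also ended the iEtv2 call (adjusted p = 0.051). Pim1 (0.12), Mcrip2 (0.13) and Asic1 (0.15) were most like it.

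Per kb of exon, the 4 binding proteins summed to 157 ± 8.95 CPM in SP Etv2-positive against 115 ± 3.29 in SP Etv2-negative cells, to 183 ± 11.7 in DP Etv2-positive against 117 ± 6.88 in DP Etv2-negative cells, and to 335 ± 15 in iEtv2 SP, 197 ± 17.9 in WT SP and 181 ± 15.4 in WT DP. Igfbp4 and Igfbp2 made up most of the sum in every library. Igfbp3 fell to 0.72 ± 0.14% of the sum in SP Etv2-positive cells, against 4.87 ± 1.26% in SP Etv2-negative cells. Igfbp2 was 30.7 ± 6.29% of the sum in iEtv2 SP and 22.7 ± 2.2% in WT SP.

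**Figure D4:**
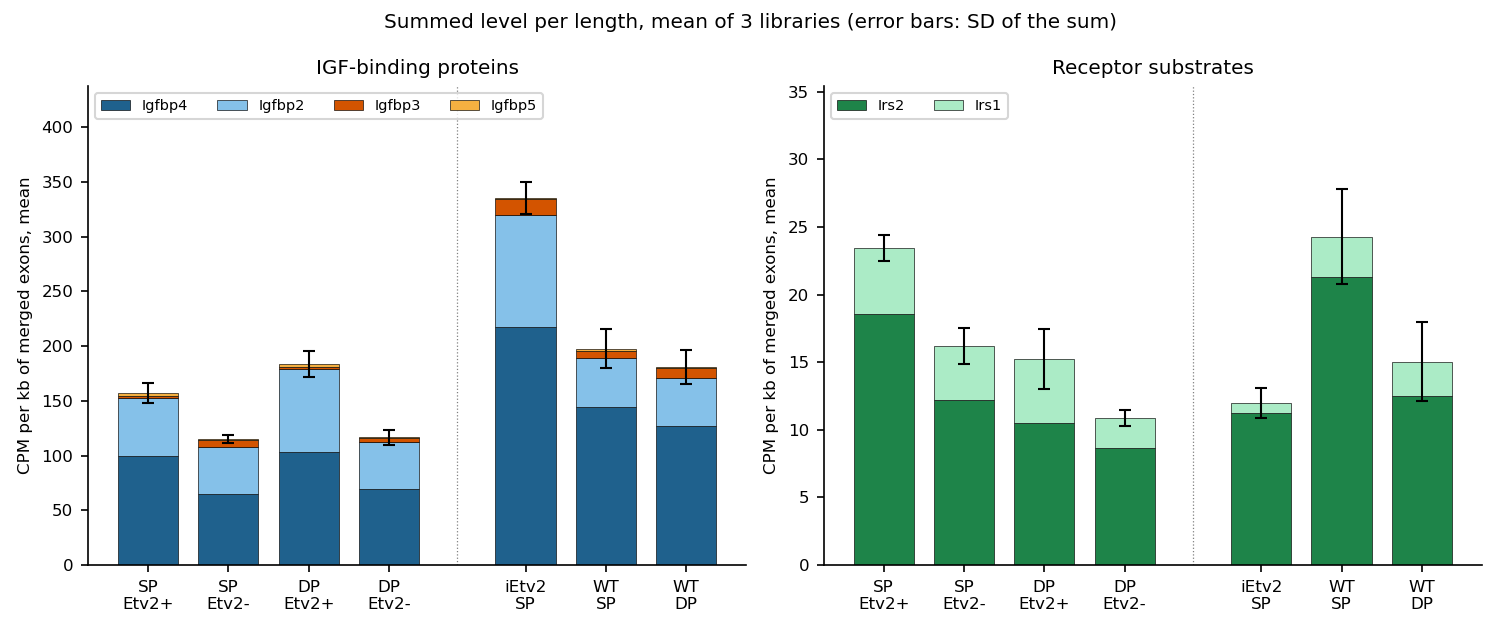
Mean level per kb of merged exons of the 4 binding proteins (left) and of Irs1 and Irs2 (right) by group, stacked, with the SD of the sum over 3 libraries. The binding proteins are highest in iEtv2 SP of the second set and in DP Etv2-positive cells of the reporter line, and the docking proteins are lowest in iEtv2 SP and DP Etv2-negative cells of their sets.

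Between gates fewer members were called. Among Etv2-negative cells Irs1, Irs2 and Igfbp3 were higher in SP than in DP and none was lower, against 10.9% of all genes called (6.1% higher, 4.84% lower), and 6 members did not overlap, against 32.1% of all genes. Among Etv2-positive cells Irs2 was higher in SP and Igfbp2 was lower, with Igf1 also called higher in the group through which it passed the filter, against 13.9% of all genes called (6.95% higher, 6.94% lower), and 4 members did not overlap, against 32.4% of all genes. In WT Igf1 and Irs2 were higher in SP and none was lower, against 15.8% of all genes called (9.08% higher, 6.76% lower), and 2 members did not overlap, against 32.1% of all genes. Irs2 was the member called in all 3 gates. The gate and reporter comparisons share libraries, so their values are given side by side only.

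The forced and the reporter effect were also set against each other, in 1 fit over all 21 libraries, as the log2 fold change of iEtv2 SP over WT SP minus that of SP Etv2-positive over SP Etv2-negative cells. This comparison was added after the members' values had been seen, and 42.9% of the 18766 genes tested were called in it (24.2% higher, 18.7% lower). Its 2 references are unlike, since SP Etv2-negative cells were sorted as negative for tdTomato and WT SP cells were not split by Etv2. WT SP cells held 93.6 CPM of Etv2 on average. Of the members 4 were higher and 3 lower. Irs1 (-2.31 ± 0.26, adjusted p = 8.55e-07), Irs2 (-1.48 ± 0.17, adjusted p = 7.4e-07) and Igfbp5 (-2.05 ± 0.55, adjusted p = 0.00519) were lower with induced Etv2 relative to the reporter. Igfbp3 (3.52 ± 0.62, adjusted p = 0.00011), Igf1 (3.27 ± 0.97, adjusted p = 0.0096), Igfbp2 (0.97 ± 0.17, adjusted p = 0.00014) and Insr (0.50 ± 0.18, adjusted p = 0.0275) were higher. Igf1 lost its call without SP Etv2-negative replicate 3 (2.93, adjusted p = 0.0759). Insr lost its call without any 1 of 7 libraries, namely SP Etv2-negative replicate 1, SP Etv2-positive replicates 2 and 3, WT SP replicates 1 and 3 and iEtv2 SP replicates 2 and 3 (adjusted p 0.0533 to 0.0958). Igfbp4 differed by 0.01 ± 0.13 (adjusted p = 0.976), and Igf1r by 0.45 ± 0.22 (adjusted p = 0.104, and 0.0468 without WT SP replicate 2). Markers of other cell types also differed between iEtv2 SP and WT SP, with a sum of 8 pluripotent-cell markers of 269 to 291 CPM in iEtv2 SP against 60.6 to 96.2 CPM in WT SP, none of them at 0. Their part in these differences was not tested.

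Around the members, 66 other genes of the pathway were followed in 6 lists. Of the 59 tested in the reporter line, 15 were higher and 19 lower in DP Etv2-positive than in DP Etv2-negative cells, and 7 were higher and 14 lower in SP. Of all genes, 30.7% were called in DP and 25.5% in SP. Of the 58 tested in the second set, 21 were higher and 14 lower in iEtv2 SP than in WT SP, and 10 were higher and 8 lower in SP than in DP of WT. Of all genes, 50.8% and 15.8% were called in these comparisons. Median log2 fold changes of these genes were -0.04 in DP, -0.06 in SP and 0.02 in iEtv2 SP over WT SP, against 0.0042, -0.013 and 0.0019 over all genes tested.

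Among the other ligands and receptors, Igf2 was higher in DP Etv2-positive than in DP Etv2-negative cells (256 ± 80.5 against 106.5 ± 49.3 CPM, log2 fold change 1.27 ± 0.28, adjusted p = 0.00443) and higher in SP than in DP of WT (119 ± 23.2 against 48.9 ± 4.77 CPM, log2 fold change 1.28 ± 0.14, adjusted p = 0.000216). It averaged 129 ± 14.6 CPM in iEtv2 SP and was not called there (adjusted p = 0.523). Igf2r, which clears IGF2, was higher in iEtv2 SP than in WT SP (410 ± 18.4 against 300 ± 36 CPM, adjusted p = 0.00229). Ghr, the growth hormone receptor, was higher in DP Etv2-positive cells (log2 fold change 0.51 ± 0.14, adjusted p = 0.0159) and in iEtv2 SP (0.64 ± 0.15, adjusted p = 0.00404), and lower in SP Etv2-positive cells (-0.51 ± 0.14, adjusted p = 0.022). Igfbp7 stood at 0.218 CPM or less in every group mean and was not tested.

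Of 6 tested carriers and proteases, 4 fell with the reporter in each gate, where 12.4% of all genes were lower in SP and 14.7% in DP. Pappa, which encodes the protease that cleaves IGFBP4, had a log2 fold change of -1.71 ± 0.24 in SP (1.05 against 3.42 CPM, adjusted p = 0.000432) and of -2.77 ± 0.21 in DP (1.85 against 12.6 CPM, adjusted p = 3.02e-06). Stc1, whose product inhibits PAPP-A, fell by 1.74 on the log2 scale in SP (adjusted p = 0.0158) and by 1.85 in DP (adjusted p = 0.00942), and was higher in iEtv2 SP than in WT SP (log2 fold change 1.57 ± 0.26, adjusted p = 0.000462). Adamts1 was higher with the reporter in both gates (0.50 ± 0.13 in SP and 0.58 ± 0.14 in DP, adjusted p = 0.0149 and 0.00586) and lower in iEtv2 SP (-0.76 ± 0.12, adjusted p = 0.000282).

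At the receptor, 4 of 11 adaptors and regulators tested were higher and 2 lower in iEtv2 SP than in WT SP, where 26.4% of all genes were higher and 24.4% lower. Gab1, a docking protein, had a log2 fold change of 1.71 ± 0.07 (272 against 83.1 CPM, adjusted p = 5.14e-08) and Shc1, an adaptor to the RAS pathway, of 1.24 ± 0.08 (451 against 191 CPM, adjusted p = 7.89e-07). Irs4, a further substrate, was lower with the reporter in SP (-2.28 ± 0.36, adjusted p = 0.000803) and DP (-2.27 ± 0.34, adjusted p = 0.000352), with reporter group means of 2.75 CPM or less. In the PI3K, AKT and mTOR relay, 5 of 19 genes were higher and 4 lower in iEtv2 SP, shares near those of all genes. Pik3r1, a regulatory subunit of PI3K, was higher (0.99 ± 0.08, adjusted p = 3.58e-06) and Akt2 lower (-0.84 ± 0.09, adjusted p = 2.2e-05). Akt1 was higher with the reporter in SP (0.43 ± 0.05, adjusted p = 0.000189) and in DP (0.47 ± 0.05, adjusted p = 4.59e-05). Of the 3 IGF2 mRNA-binding proteins, Igf2bp2 was lower in iEtv2 SP (-1.06 ± 0.08, adjusted p = 2.36e-06).

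FOXO factors and genes they are known to induce, 16 in all, were lower in 8 cases and higher in 1 in SP Etv2-positive than in SP Etv2-negative cells, and lower in 8 and higher in 3 in DP. Of all genes, 12.4% were lower and 13.1% higher in SP, and 14.7% lower and 16% higher in DP. In iEtv2 SP 8 were higher and 5 lower than in WT SP, where 26.4% of all genes were higher and 24.4% lower. Foxo1 had a log2 fold change of 2.53 ± 0.10 there (59.1 against 10.2 CPM, adjusted p = 5.27e-08) and Ccng2, an atypical cyclin, of 1.67 ± 0.13 (70.9 against 22.2 CPM, adjusted p = 1.95e-06). Ccng2 was lower with the reporter in SP (-1.10 ± 0.31, adjusted p = 0.0192) and in DP (-0.88 ± 0.30, adjusted p = 0.0396). Cited2, a transcriptional co-regulator, went the other way, higher with the reporter in SP (0.36 ± 0.09, adjusted p = 0.00901) and DP (0.47 ± 0.09, adjusted p = 0.00119) and lower in iEtv2 SP (-1.31 ± 0.12, adjusted p = 6.03e-06). Other genes kept their direction: Fbxo32 was called lower with the reporter in SP and Bcl6 in DP, and both were called lower in iEtv2 SP. Foxo1 was called lower with the reporter in DP. The median of the list was -0.51 in SP and -0.31 in DP with the reporter and 0.37 in iEtv2 SP, against -0.013, 0.0042 and 0.0019 over all genes tested. The list holds genes with many other regulators.

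**Figure D5:**
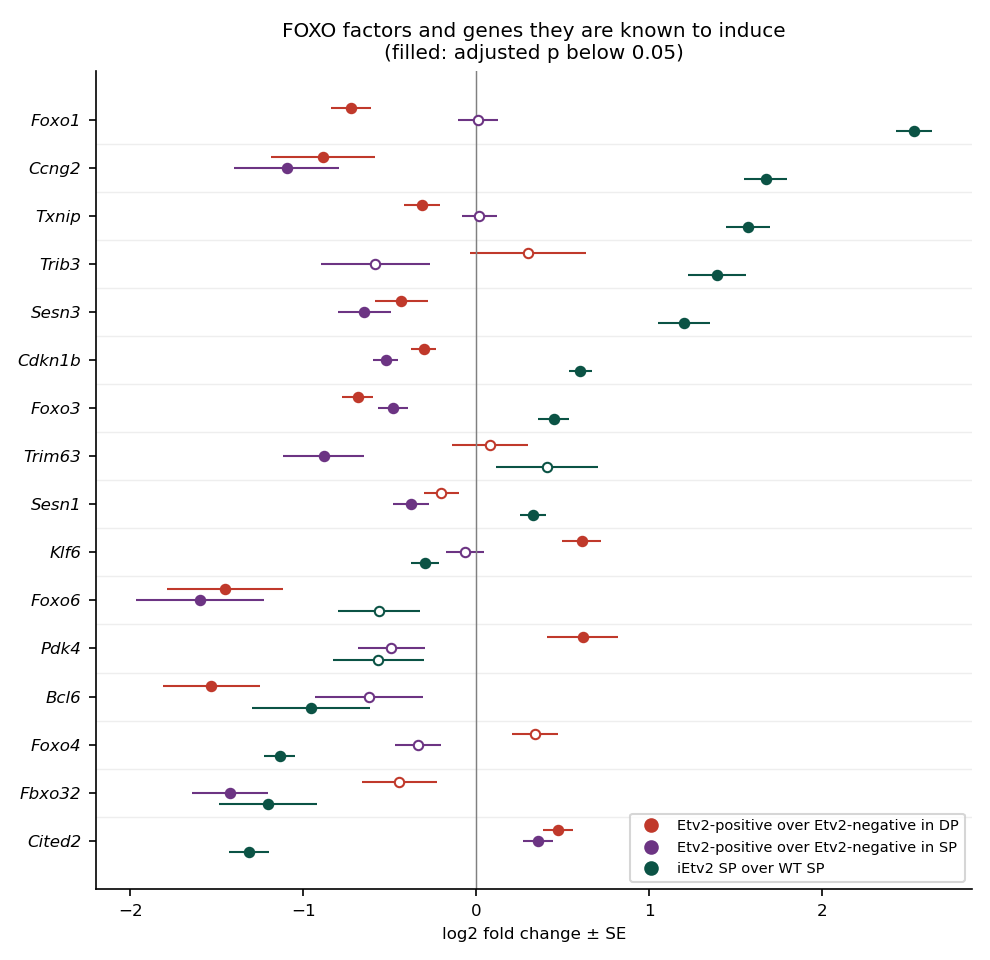
Log2 fold change with its SE for the 16 genes of the FOXO list in the reporter comparisons and in iEtv2 SP over WT SP, ordered by the last, with filled points for those past an adjusted p of 0.05. Foxo1 (2.53) and Ccng2 (1.67) lie right of 0 in iEtv2 SP, and Ccng2 lies left of 0 with the reporter in both gates. Fbxo32 and Bcl6 lie left of 0 in iEtv2 SP, as does Fbxo32 with the reporter in SP and Bcl6 in DP.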

How the data were processed

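RNA of 21 libraries was made with a stranded total RNA kit, per the labels. As deposited by the authors, the values are unnormalized counts for Ensembl genes, in 1 matrix for the 12 libraries of the reporter line and 1 file for each of the other 9. Per the submitters' processing notes the build was mm10 and the counting tool featureCounts. The aligner, the annotation and the strand setting of the counting are not given in the sources used here. The 9 single files carry summary entries of a type that featureCounts does not write (unmapped 3.95 to 5.25%, multimapping 7.34 to 8.75%, no feature 5.04 to 7.91% and ambiguous 4.30 to 4.91%), which entered neither library sizes nor tests. All columns were matched to a sample, with 0 unused.

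Identifiers were named from GENCODE M21 (55227 of 55487). Each set was fitted on its own with edgeR 4.0.16 in R 4.3.3 (TMM factors, filterByExpr, group means, quasi-likelihood test), and the difference between sets in 1 fit over 21 libraries. Standard errors are the log2 fold change divided by the root of F. Levels are CPM with TMM factors, and levels per kb use merged exon length. DESeq2 1.42.0 was an alternative, as were upper-quartile factors, other filters, a replicate block, a fit of the compared groups alone and leaving out libraries. The fits were also run on simulated data, and the outcome is not given here. Members, gene lists and tests were chosen with earlier results of these data known. From each other pathway list, up to 2 called genes with the largest rise and up to 2 with the largest fall in a comparison could be named, given a mean of at least 1 CPM, and Igf2, Igf2r and Igfbp7 always were. Like genes were named for members that span at least 1 on the log2 scale.

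Replicate numbers paired the libraries for the reporter effect, where deviations of same-numbered libraries correlated at 0.175 to 0.342 in DP and 0.143 to 0.268 in SP. For SP over DP they correlated at 0.0962 to 0.334 in Etv2-negative cells, 0.0767 to 0.269 in Etv2-positive cells and 0.0916 to 0.342 in WT. For iEtv2 SP over WT SP the range was -0.0763 to 0.166. No library was a copy of another, and libraries of a group correlated at 0.99 to 0.994 (reporter line) or 0.987 to 0.994 (second set).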

Additional observations from a re-analysis of the deposited data

Results flagged for a closer look

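Igfbp3, a carrier of IGFs, fell further with the Etv2 reporter in SP than in DP, by -1.29 on the log2 scale, in a test of the difference itself (adjusted p = 0.0281, edgeR quasi-likelihood test). Leaving out 7 of the 12 libraries, 1 at a time, ended the call (adjusted p 0.0512 to 0.0814), as did leaving out the 2 libraries of high ribosomal RNA share (adjusted p = 0.0965).

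For 7 members the effect of iEtv2 SP over WT SP differed from that of SP Etv2-positive over SP Etv2-negative cells. In that comparison, added after the members' values had been seen, 42.9% of the 18766 genes tested were called. The difference was 3.27 for Igf1, 0.504 for Insr, -2.31 for Irs1, -1.48 for Irs2, 0.968 for Igfbp2, 3.52 for Igfbp3 and -2.05 for Igfbp5, all on the log2 scale and each called in the fit over 21 libraries. The call of Insr was lost without any 1 of 7 libraries (adjusted p 0.0533 to 0.0958), and that of Igf1 without SP Etv2-negative replicate 3 (adjusted p = 0.0759). For Igfbp3 the effect of iEtv2 SP over WT SP was itself not called, and those groups overlapped (1.17 ± 0.52, adjusted p = 0.0825). The line, doxycycline and Etv2 cannot be told apart in the first effect, and both effects come from separately counted sets. WT SP cells, the reference of the first effect, were not split by Etv2, unlike SP Etv2-negative cells.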

How the results depend on the processing

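No called member changed direction in any alternative run. Among 1127 member values under alternatives, 1030 kept their side of the threshold, 54 lost and 43 gained a call. The sign turned in 34, none of them called as reported or under the alternative, among them Igfbp3 in WT SP over WT DP (-0.50 as reported, 0.047 without WT DP replicate 2). Igf1, Irs1, Irs2, Igfbp2 and Igfbp4 in iEtv2 SP over WT SP were called in all. The reporter effect in DP had 3 members higher when the fit held only the compared groups, and 3 to 5 when 1 library was left out. It had up to 6 in other alternatives, with Igf1 gained without a filter and with the replicate block. In SP, members higher reached 6, with Irs1 and Igfbp2 gained without a filter. In SP, members lower numbered 2 with upper-quartile factors, 3 without a filter and 2 with only the compared groups, and 1 to 2 with 1 library left out. Without the 2 libraries of high ribosomal RNA share, SP had 2459 genes called (4504 with them) and 2 members higher.

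Between gates, Etv2-negative cells had 5 members higher and 1 lower without a filter, and 787 to 2268 genes called with 1 library left out (1936 with all). Etv2-positive cells had 1 member higher with a filter of 1 CPM, with only the compared groups (1324 genes called) and without the 2 libraries (1106 genes called, 0 members lower), and 2 members lower without a filter and with DESeq2. With 1 library left out they had 1342 to 2403 genes called, 1 to 2 members higher and 1 to 2 lower. WT had 2 members lower without a filter, and 1509 to 2683 genes called and 0 to 1 members lower with 1 library left out. In iEtv2 SP 3 to 5 members were higher with 1 library left out. The difference between the SP and DP reporter effects had 1740 genes called without a filter, 1242 with DESeq2 and 119 without the 2 libraries (702 with all), with 3, 3 and 0 members lower. With 1 library left out it had 50 to 1268 genes called and 0 to 2 members lower. The cause of these changes was not tested.

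With the replicate number as a block, 2 members were lower in SP with the reporter, 5 higher between Etv2-negative gates, 2 lower between Etv2-positive gates, 1 lower in WT, and 3 lower in the difference of reporter effects (1537 genes called). Between Etv2-negative gates the block called Igf1 (adjusted p = 0.0295) and Igfbp5 (0.0246). Between Etv2-positive gates it called Igfbp3 (0.035) and Igfbp5 (0.0129), and between WT gates Igf1r (0.0278). It also called Igfbp3 (0.0187) in iEtv2 SP over WT SP, where the numbers did not pair all libraries.

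Low counts limit Igf1 in all reporter groups. Replicates of 3 limit every test, and the strand setting limits genes with an overlapping partner.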
